A study of Rattus norvegicus with 12 samples.

Results

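The resting state of the study is held by the group siNeg, which was taken by its label alone and makes up 3 of the 12 sequenced samples. These were neonatal rat ventricular myocytes (NRVMs), primary heart muscle cells of Sprague-Dawley pups no older than 3 days, which had been given the control siRNA siNeg and no phenylephrine (PE). PE is an alpha1-adrenergic agonist that makes such cells grow in culture. The other groups, each of 3 samples, were siNeg PE (control siRNA and 36 h of PE by the labels, where the study's methods state a longer time), siSlc39a2 (an siRNA against the zinc importer Slc39a2, no PE) and siSlc39a2 PE (that siRNA and 36 h of PE). The labels call the 3 samples of a group independent biological replicates. Every sample carried an siRNA transfection, so no sample shows the cells without it. The ventricles had been dissociated, the myocytes enriched on Percoll and kept without serum on insulin, transferrin and selenium. The cultures can therefore hold other cells of the ventricle, and in bulk RNA fewer cells of a type cannot be told apart from less RNA in each of them.

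Neonatal ventricular myocytes are in transition. Before birth the rodent ventricle relies on a slow myosin heavy chain, on slow skeletal troponin I and on glucose, and after birth it shifts towards the fast alpha-myosin, cardiac troponin I and the burning of fatty acids. The same cells stop dividing in the weeks after birth, and they express the alpha1- and beta-adrenergic receptors through which catecholamines act. Stimulated cells turn part of this programme back, with the natriuretic peptides and skeletal alpha-actin as its usual readouts.

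The 3 libraries held 27332138, 27537324 and 26429382 counts, within the 24065539 to 28603854 of the whole series. Counts of 3 in a library of this depth stand for 0.109 to 0.114 CPM (counts scaled to library size), which is the least that could be told from nothing. Levels are given as FPKM (fragments per kilobase of transcript, scaled to the size of the library), which takes transcript length out, as mean ± SD of n = 3 or as the values of siNeg 1, 2 and 3 in that order. Of the 18483 genes, 11207 (60.6%) had a mean of at least 1 FPKM, 5946 of at least 10, 995 of at least 100 and 107 of at least 1000. Genes at 10 FPKM or more held 96.2% of the summed FPKM. Over the 7812 genes with a mean of at least 5 FPKM, the median coefficient of variation across the 3 samples was 6.61%, and 64 genes exceeded 30%.

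The library siNeg 1 stood apart from siNeg 2 and siNeg 3 in a way that followed transcript length. Its genes with transcripts under 1 kb lay above the mean of the other two by a median of 0.19 on the log2 scale, and those over 5 kb lay below it by a median of -0.31. For siNeg 2 and siNeg 3 the medians ran from -0.05 to 0.14 and from -0.14 to 0.17. Between libraries, the SD of the log2 difference over genes was 0.25 for siNeg 2 against siNeg 3, and 0.33 and 0.35 for the pairs that held siNeg 1. Counts differed by more than sampling noise in all 3 pairs, with a chi-square per degree of freedom of 5.09 to 29.4. Of the 64 genes with a coefficient of variation over 30%, siNeg 1 was the farthest sample in 37. Values without siNeg 1 are given below where a named result did not hold in its absence.

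**Figure D1:**
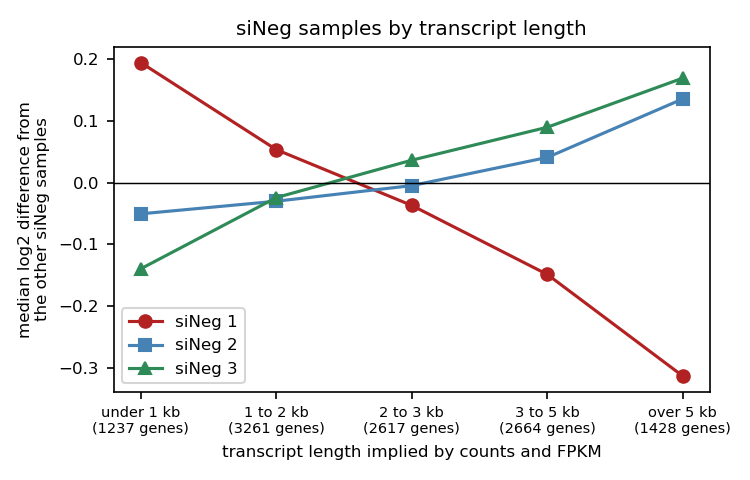
Median log2 difference of each siNeg library from the mean of the other siNeg libraries, for genes grouped by transcript length (1237, 3261, 2617, 2664 and 1428 genes from short to long). The line of siNeg 1 falls from 0.19 to -0.31 on the log2 scale, while siNeg 2 and siNeg 3 slope the other way.

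To see what set the resting cells apart, siNeg was compared with siNeg PE and with siSlc39a2 by edgeR's quasi-likelihood test over all 12 samples and 13967 genes. A gene is called higher or lower in siNeg at a Benjamini-Hochberg adjusted p under 0.05 and an absolute log2 fold change above 1, and positive log2 fold changes mean more in siNeg. Against siNeg PE, 391 genes (2.8% of those tested) were called higher and 531 (3.8%) lower. Against siSlc39a2, 728 genes (5.21%) were called higher and 638 (4.57%) lower. The median log2 fold change over all tested genes was 0.01 in the first and 0.02 in the second. The 2 comparisons share the siNeg samples, so their values are given side by side and not as independent evidence.

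The transcripts that dominated siNeg were those of the contractile apparatus and of energy supply. Cardiac alpha-actin Actc1 ranked first in every siNeg sample, at 7373, 6980.2 and 7535 FPKM. Tropomyosin Tpm1 followed at 6413, 5519 and 5505 FPKM, and the ventricular essential light chain Myl3 at 5704, 5378 and 4912 FPKM. Next came Cox6a2, the muscle form of a cytochrome c oxidase subunit, at 5875, 4867 and 4899.9 FPKM. Together the 30 highest genes took 15.7% of the summed FPKM, the 50 highest 21.1% and the 100 highest 31.3%. The 10 highest alone took 7.76%, so the summed level was spread over many genes.

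The rest of the 10 highest combined glycolysis, calcium regulation of the filament, respiration and the handling of oxygen and fatty acids. The glycolytic enzyme Gapdh stood at 4860.4, 4663 and 4779 FPKM, and cardiac troponin T, Tnnt2, which ties the troponin complex to tropomyosin, at 4941, 4314 and 3994 FPKM. Myoglobin, Mb, which stores oxygen, had 5141, 3888 and 3776 FPKM. Its range shows the tilt of siNeg 1, which lay above the other two, whereas the ATP synthase beta subunit Atp5f1b was even across the samples, at 4112, 4042 and 4079 FPKM. Troponin C, Tnnc1, the calcium sensor of the thin filament, had 4229, 3486 and 3213 FPKM and the fatty acid carrier Fabp3 4252, 3169.7 and 2939 FPKM.

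Places 11 to 30 held ferritin chains (Fth1 and Ftl1), the elongation factor Eef1a1, the ribosomal proteins Rps2, Rplp1, Rplp0, Rpl41 and Rps27, and ubiquitin (Ubb). They also held the matrix protein gene Sparc, the mitochondrial ADP/ATP carrier Slc25a4, aldolase (Aldoa), alpha-myosin (Myh6), cardiac troponin I (Tnni3), the ATP synthase alpha subunit Atp5f1a, cyclophilin (Ppia), desmin (Des), the oxidase subunits Cox8a and Cox4i1, and Tmsb10. Their means ran from 1952 to 3076 FPKM. Of the 30 genes, 27 were among the 30 highest of every siNeg sample, and 26 had their highest value in siNeg 1. For 16 of the 30, Actc1, Gapdh, Myh6 and Tnni3 among them, the deposited counts were not whole numbers, and their levels are less certain, since the counting program is not given in the sources used here.

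**Figure D2:**
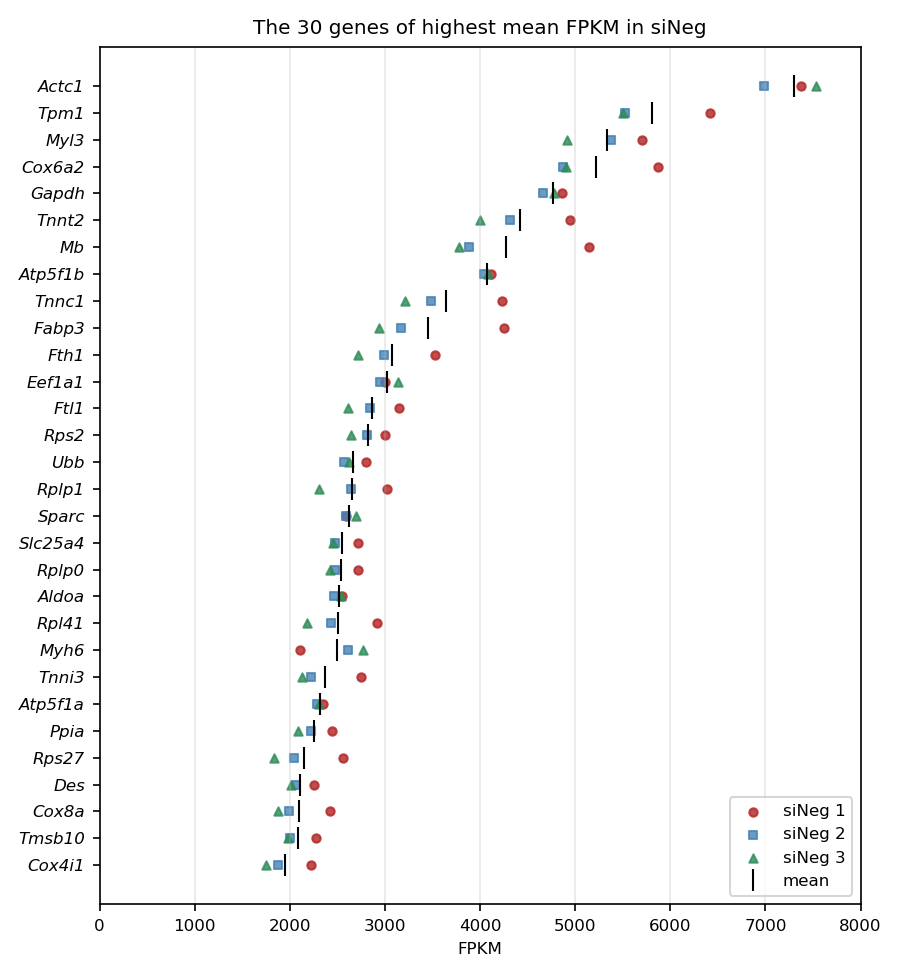
FPKM of the 30 highest genes of siNeg in each of the 3 siNeg samples, on a linear axis, one symbol per sample with the mean as a black tick. Actc1 leads at 6980.2 to 7535 FPKM, and the values of siNeg 1 lie highest for 26 of the 30 genes.

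By class, the 41 genes of the thick filament, thin filament and Z-disc lists took 7.08 ± 0.05% of the summed FPKM (SD, n = 3). The 87 ribosomal protein genes took 12.9 ± 0.673% and the 98 genes named as parts of oxidative phosphorylation 10.1 ± 0.431%. In counts, which favour long transcripts, the sarcomere share was 7.90% and the other two 4.45% and 4.36%. Among the 100 highest genes, 31 were of the ribosomal class, 20 belonged to oxidative phosphorylation and 13 to the sarcomere lists. Here and below the ribosomal class leaves out Rps19 (mean 1393 FPKM, rank 60), whose symbol occurs more than once.

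Most of these abundant genes differed by less than the fold threshold in both comparisons. Since they were chosen by their level in siNeg, genes much lower there had little chance to be among them, and nothing is read from their directions. Against siNeg PE, 2 of the 30 highest genes, Mb and Fabp3, were called higher, beside 2.8% of all genes tested, and against siSlc39a2 again 2, Ftl1 and Myh6, beside 5.21%. The median log2 fold changes of the 30 were 0.27 and 0.47, beside 0.01 and 0.02 over all genes. Actc1 missed the fold threshold against siNeg PE with a small p (log2 fold change -0.83, SE 0.06, adjusted p = 1.24e-06 by edgeR). Mb ranged over 1235 to 1998 FPKM in siNeg PE (log2 fold change 1.52, SE 0.17, adjusted p = 2.34e-05 by edgeR) and Fabp3 over 1249 to 1734 FPKM (log2 fold change 1.33, SE 0.15, adjusted p = 2.95e-05). None of the 83 tested ribosomal protein genes passed the fold threshold in either comparison, but their median log2 fold changes were 0.24 against siNeg PE and 0.40 against siSlc39a2. Their share of the summed FPKM averaged 12.9% in siNeg, 12.2 ± 0.169% in siNeg PE and 10.8 ± 0.177% in siSlc39a2. In siNeg 1, 2 and 3 it was 13.7, 12.8 and 12.4%, so siNeg 3 lay near the siNeg PE mean. Of 95 oxidative phosphorylation genes 1 was called higher and 1 lower against siNeg PE, with list medians of 0.35 and 0.33 in the 2 comparisons. Their share was 10.1% in siNeg, 8.52% in siNeg PE and 8.69% in siSlc39a2. Genes that joined the 30 highest in siNeg PE but not in siNeg were Nppa, Myh7, Acta1, S100a4, Cryab and Rps29.

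The promoters of the abundant genes are shown so that the motifs counted below in contractile and ribosomal start regions can be seen in place. Each sequence runs 5′ to 3′ on the strand of the gene, from 250 bases before to 50 bases after the transcription start, as given by RefSeq on build GRCr8. These positions belong to another assembly than the Rnor_6.0 named by the submitters and were used only for sequence. Capitals mark TATAAA, the CArG box (the site of serum response factor Srf), CATTCC (the TEAD element) and GGGCGG (the Sp1 box), each searched on both strands. The 3 contractile genes are those of highest level among the 4 sarcomere genes of at least 100 FPKM whose window held a CArG box, and Rps2 was the highest ribosomal protein gene. Actc1 lies at chr3:121271778-121272077 on the minus strand, Myl3 at chr8:119616844-119617143 on the plus strand, skeletal alpha-actin Acta1 at chr19:68784145-68784444 on the minus strand and Rps2 at chr10:14251598-14251897 on the plus strand.
Actc1: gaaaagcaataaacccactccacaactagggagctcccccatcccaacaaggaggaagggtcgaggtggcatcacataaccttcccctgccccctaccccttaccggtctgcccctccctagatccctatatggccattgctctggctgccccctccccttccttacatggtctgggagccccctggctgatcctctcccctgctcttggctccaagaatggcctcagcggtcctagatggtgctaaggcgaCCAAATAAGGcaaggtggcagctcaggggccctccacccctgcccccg
Myl3: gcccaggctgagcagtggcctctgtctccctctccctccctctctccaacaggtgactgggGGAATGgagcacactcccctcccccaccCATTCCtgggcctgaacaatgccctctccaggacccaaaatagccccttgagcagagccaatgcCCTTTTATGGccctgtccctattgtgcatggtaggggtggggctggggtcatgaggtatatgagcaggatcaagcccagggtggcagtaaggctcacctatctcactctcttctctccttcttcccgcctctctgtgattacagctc
Acta1: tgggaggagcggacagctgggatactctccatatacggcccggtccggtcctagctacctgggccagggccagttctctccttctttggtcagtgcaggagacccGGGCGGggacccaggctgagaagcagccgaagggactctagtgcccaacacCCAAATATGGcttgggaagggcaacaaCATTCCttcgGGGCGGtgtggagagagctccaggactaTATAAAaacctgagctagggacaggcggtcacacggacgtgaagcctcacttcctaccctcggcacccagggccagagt
Rps2: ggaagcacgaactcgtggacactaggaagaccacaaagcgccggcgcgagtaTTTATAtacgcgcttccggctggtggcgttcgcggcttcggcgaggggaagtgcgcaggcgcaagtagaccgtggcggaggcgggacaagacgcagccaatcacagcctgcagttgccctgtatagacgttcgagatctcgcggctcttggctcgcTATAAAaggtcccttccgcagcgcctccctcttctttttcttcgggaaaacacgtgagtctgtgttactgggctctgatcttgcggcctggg

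The CArG box began 97 bases before the start in Myl3 and 94 bases before it in Acta1, whereas in Actc1 it lay inside the transcript from base 3. Acta1 also held TATAAA at 29, CATTCC at 67 and GGGCGG at 145 and 57 bases before the start. Rps2 held TATAAA at 42 bases before the start and, on the other strand, at 198. Ldb3, which encodes a Z-disc protein, was the other sarcomere gene with a CArG box, at 52 bases before the start. Among 21 promoters of sarcomere genes of at least 100 FPKM (20 of 25 genes matched), 4 (19.05%) held a CArG box and 6 (28.6%) CATTCC. The shares over all 33469 promoters of the table were 1.64% and 14.2%. Among 59 promoters of ribosomal protein genes of at least 100 FPKM (58 of 77 genes matched), 1.69% held a CArG box, 6.78% CATTCC and 57.6% GGGCGG, the last against 33.1% of all promoters but 63.7% of those of genes at 1 FPKM or more. The median number of CG dinucleotides was 7 in the sarcomere promoters and 23 in the ribosomal ones, beside 7 over all promoters and 21 for genes at 1 FPKM or more. Of the promoters of genes at 1 FPKM or more, 1.41% held a CArG box and 11.1% CATTCC. A match describes letters, not a bound site.

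The ratio of the adult to the fetal form of the same protein was taken in each sample as log2 of the FPKM ratio, with 0.1 added to each value, for 19 pairs. In all 3 siNeg samples 12 pairs favoured the adult form and 6 the fetal form, and 1 was mixed. Myosin heavy chain favoured the adult alpha form only slightly. Myh6 had 2109, 2608 and 2770.3 FPKM and the slow, fetal Myh7 1448, 1561 and 1702 FPKM, so that Myh7 made up 37.4 to 40.7% of their sum. The log2 ratios were 0.54, 0.74 and 0.70. In counts, before division by length, the mean ratio was 0.18 and that of siNeg 1 was -0.11. The difference arises because FPKM used a longer mean transcript for Myh7 (8.44 kb) than for Myh6 (6.04 kb). The Myh7 length also varied by sample, at 9.47, 8.05 and 7.81 kb in siNeg 1, 2 and 3. That of Myh6 stayed at 6.03 to 6.05 kb. The share of the 2 forms is therefore known no better than these lengths. Both genes had counts that were not whole, and these neighbouring paralogs can share reads.

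Cardiac troponin I and its slow skeletal, fetal form stood nearly level as well. Tnni3 had 2746, 2224 and 2133 FPKM and Tnni1 2139, 1789 and 1612 FPKM, which puts Tnni1 at 43.0 to 44.6% of the pair. The log2 ratios were 0.36, 0.31 and 0.40 in FPKM but -0.05 on average in counts, so the side of the balance depended on the lengths (0.715 kb for Tnni3, 0.951 kb for Tnni1). In contrast, cardiac actin exceeded skeletal actin by a log2 ratio of 3.90 ± 0.03, and the ventricular light chain Myl3 exceeded the atrial and fetal Myl4 by 5.48 ± 0.13. The ventricular regulatory light chain Myl2 had 1371, 1333 and 1016 FPKM against 108, 90.9 and 89.8 FPKM for the atrial Myl7, a log2 ratio of 3.68 ± 0.19. The fetal form thus remained close to the adult one in the myosin heavy chain and in troponin I, and far below it in the actins and light chains.

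Enzyme and channel pairs were split. Muscle creatine kinase Ckm exceeded the brain form Ckb by a log2 ratio of 2.48 ± 0.05, mitochondrial Ckmt2 exceeded Ckmt1 by 5.39 ± 0.41, and the muscle carnitine palmitoyltransferase Cpt1b exceeded the liver form Cpt1a by 2.06 ± 0.05. Ckmt1 stayed under 1 FPKM in siNeg, so the ratio of Ckmt2 to it depends in part on the added 0.1. Lactate dehydrogenase favoured the heart subunit, with Ldhb over Ldha at 1.11 ± 0.09. Hexokinase and enolase favoured the forms that come early in development, with Hk2 over Hk1 at -5.30 ± 0.11 and Eno3 over Eno1 at -3.67 ± 0.05. Among cytochrome c oxidase subunits, the muscle form led for Cox6a2 over Cox6a1 (1.54 ± 0.04) and trailed for Cox8b over Cox8a (-0.90 ± 0.11). Cox7a1 was almost without reads, so that its ratio to Cox7a2 (-10.99 ± 0.34) depends on the added 0.1. The insulin-responsive glucose carrier Slc2a4 and the fetal Slc2a1 were level, with log2 ratios of -0.19, 0.17 and 0.13, the siNeg 1 value lying on the other side of 0. Tropomyosin favoured Tpm1 over Tpm2 by 4.96 ± 0.12.

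**Figure D3:**
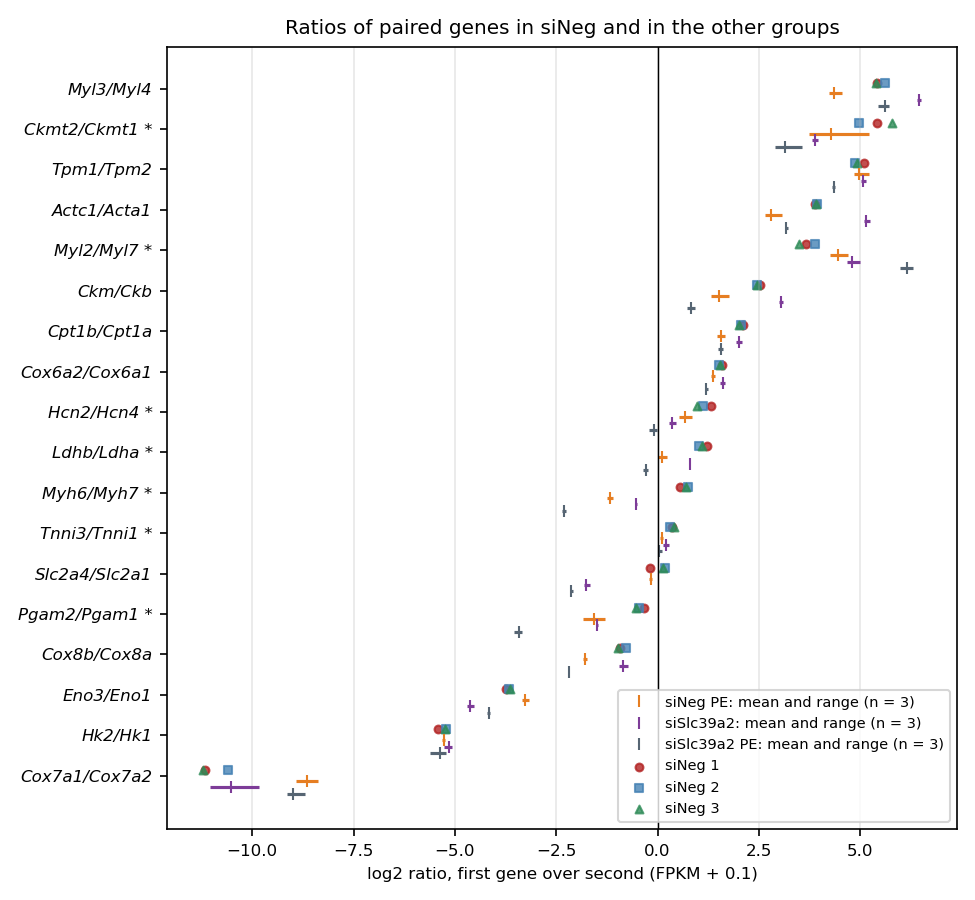
Log2 ratio of adult to fetal form, in FPKM with 0.1 added, for the isoform pairs, with a symbol for each siNeg sample and the mean and range of each of the other groups (n = 3). The 0 line marks equal levels, and siNeg lies above all other samples for Myh6/Myh7 and below them for Myl2/Myl7.

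Set against the other 9 samples by an exact two-sided permutation test (220 arrangements, smallest p 0.00909), 8 of the 19 ratios differed at an adjusted p under 0.05. Of these, 7 did not overlap with any of the 9 samples. The 9 samples pool 3 groups of 3 replicates, so the 12 samples are not freely exchangeable. Any group whose samples all lie beyond the others reaches the smallest p. The p-value therefore does not measure a difference particular to rest. Myh6/Myh7 was 0.66 ± 0.11 in siNeg and -2.35 to -0.52 elsewhere (exact permutation test, adjusted p = 0.0247). Tnni3/Tnni1 was 0.36 ± 0.05 against 0.00 to 0.27, with the same adjusted p, and Ldhb/Ldha 1.11 ± 0.09 against -0.37 to 0.81. The adult form was thus relatively higher in siNeg for these 3 pairs than in any treated or knockdown sample. The same held for the muscle phosphoglycerate mutase, with Pgam2/Pgam1 at -0.44 ± 0.10 against -3.53 to -1.30, and for the pacemaker channels, with Hcn2/Hcn4 at 1.13 ± 0.17 against -0.21 to 0.85. Ckmt2/Ckmt1 was also higher in siNeg but overlapped (adjusted p = 0.0432), and it rests on the low level of Ckmt1.

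The opposite direction was seen for the regulatory light chains. Myl2/Myl7 was 3.68 ± 0.19 in siNeg against 4.24 to 6.29, so that the atrial Myl7 was relatively higher at rest. The essential light chains did not show this, since Myl3/Myl4 overlapped with the other samples and did not pass. Of the 19 pairs 11 did not pass, Slc2a4/Slc2a1 among them (adjusted p = 0.0518). With siNeg 1 left out the smallest attainable p was 0.0364 and no pair passed after adjustment, although 8 pairs had an unadjusted p under 0.05 and the difference for Myh6/Myh7 was 2.06.

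The thick filament list had 12 of 13 members at 1 FPKM or more, and 11 at 10 or more. Beside the myosins and light chains, myosin-binding protein C, Mybpc3, stood at 649.6, 649 and 675 FPKM and the M-band protein Myom1 at 88.5, 110.0 and 115 FPKM. Titin, the giant spring of the sarcomere, had 26.4, 38.8 and 37.1 FPKM, lowest in siNeg 1 as other long transcripts were. The atrial light chains Myl7 and Myl4 were far lower than Myl2, with Myl4 at 133, 109 and 118 FPKM. Against siNeg PE, 1 member was called higher (Myom2, log2 fold change 1.09, SE 0.16, adjusted p = 1.83e-04) and 1 lower (the myosin light chain kinase Mylk3, log2 fold change -1.06, SE 0.08, adjusted p = 1.48e-06), where 2.8% and 3.8% of all genes were called. Against siSlc39a2, Myh6 (1.10), Myl7 (1.03) and Myl4 (1.33) were called higher and Mybphl (-1.07) lower, with list medians of 0.25 and 0.28 in the 2 comparisons. Without siNeg 1, Myl7 no longer passed the fold threshold (0.91).

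In the thin filament, 10 of 14 members exceeded 10 FPKM, and the other 4 were under 1. Skeletal alpha-actin, Acta1, the usual readout of hypertrophy, had 501, 458 and 506 FPKM at rest, between the 193 to 223 FPKM of siSlc39a2 and the 1657 to 2137 FPKM of siNeg PE. It was called in both comparisons, lower than siNeg PE (log2 fold change -1.93, SE 0.09, adjusted p = 2.48e-08) and higher than siSlc39a2 (log2 fold change 1.35, SE 0.09, adjusted p = 9.41e-08). Its counts were not whole. No other thin filament gene was called.

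All 14 Z-disc genes of the table were at 1 FPKM or more. Alpha-actinin Actn2, which cross-links actin at the disc, had 1177, 1175 and 1242 FPKM, the chaperone Cryab 1257, 1138 and 1155 FPKM and Des, the desmin filament that ties discs together, 2253, 2063 and 2009 FPKM. The stretch-responsive Ankrd1 had 189, 207 and 226 FPKM at rest against 980.2 to 1272 in siNeg PE and 488 to 619 in siSlc39a2. It was called lower in both comparisons (-2.32 and -1.22). Myoz2 (-1.14) and Xirp2 (-1.16) were also called lower than in siNeg PE.

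The natriuretic peptides, which hypertrophic and failing myocytes release, were far lower at rest than in siNeg PE, although Nppa still ranked 683 by mean FPKM in siNeg. Nppa had 127, 149.8 and 162 FPKM and Nppb 16.3, 11.6 and 14.2 FPKM, the latter from 249, 181 and 204 counts. In siNeg PE they ranged over 2815 to 4524 and 419 to 671 FPKM, with no overlap. Nppb (log2 fold change -5.19, SE 0.17, adjusted p = 8.51e-10) and Nppa (log2 fold change -4.63, SE 0.16, adjusted p = 8.51e-10) were called lower in siNeg than in siNeg PE. Against siSlc39a2, Nppb was called lower (-2.81), while Nppa, at 291 to 331 FPKM there, missed the fold threshold (-0.96). Other genes of fetal or embryonic growth were low, the growth factor Igf2 at 3.13, 3.24 and 3.39 FPKM, Dlk1 at 0.91, 1.27 and 1.39 FPKM, and Hmga2 and Lin28b at no more than 0.1 FPKM. Igf2 and Dlk1 were nonetheless called higher in siNeg than in siSlc39a2, the opposite direction to Nppb. The RNA-binding Igf2bp1, Igf2bp2 and Igf2bp3 had 3.05, 3.46 and 5.39 FPKM on average.

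Calcium handling genes were led by the pump of the sarcoplasmic reticulum and its regulator. Atp2a2 had 1605, 1809.8 and 1977 FPKM and phospholamban Pln, which restrains it, 1410.2, 1114 and 1085 FPKM, while the atrial regulator Sln had 1.55, 1.52 and 2.08 FPKM. Calsequestrin Casq2, the calcium store, had 534, 496 and 525 FPKM and the release channel Ryr2 62.1, 79.9 and 79 FPKM. The sodium/calcium exchanger Slc8a1 stood at 44.5, 56.5 and 52.1 FPKM and the L-type channel subunit Cacna1c at 20.1, 24.8 and 24.1 FPKM. Ryr2 was lower in siNeg 1 and Pln higher there, so ratios between them varied with the library. Of 21 genes, the calcium sensor S100a1 was called higher than in siNeg PE (1.16, but 0.93 without siNeg 1), and skeletal calsequestrin Casq1 (-2.08) and Cacnb2 (-1.12) were called lower. Against siSlc39a2 the only call was Fkbp1b (1.40). Over all tested genes, 2.8% were called higher and 3.8% lower against siNeg PE, and 5.21% higher against siSlc39a2.

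Among ion channels and pumps, 21 of 26 were at 1 FPKM or more. The sodium pump's beta subunit Atp1b1 had 251, 247 and 251 FPKM and the gap junction protein connexin 43, Gja1, 231, 240.3 and 229.8 FPKM. The potassium channel Kcnh2 stood at 95.4, 92.9 and 94.3 FPKM, while Kcnj2, which sets the resting potential of adult myocytes, had only 4.47, 5.99 and 4.71 FPKM. The pacemaker channels were present, Hcn2 at 42, 38.4 and 37.1 FPKM and Hcn4 at 16.9, 17.6 and 19 FPKM. Kcnip2, a subunit of the transient outward current that appears as myocytes mature, had 85.7, 64.2 and 59.8 FPKM against 1.46 to 7.35 in siNeg PE and 25.4 to 26.9 in siSlc39a2. It was called higher in both comparisons (3.97 and 1.55), though its counts were not whole. Connexin 40, Gja5, was called higher (1.09) and Kcne1 lower (-1.85) than in siNeg PE, and neither held without siNeg 1 (0.97 and -1.30, adjusted p = 0.102 for Kcne1 by edgeR).

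Of 15 genes that mark maturation, 5 were called higher in siNeg than in siNeg PE (Myom2, S100a1, Fabp3, Mb and Kcnip2) and none lower, against 2.8% of all genes. The list median was 0.44, beside 0.01 over all genes. Against siSlc39a2, Kcnip2 and the glucose carrier Slc2a4 (1.25) were called higher. The coactivator of mitochondrial genes, Ppargc1a, had 4.31, 6.2 and 4.82 FPKM, and Cav3, which shapes the membrane, 513, 424 and 396 FPKM, and neither was called.

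Fatty acid oxidation was expressed throughout, with all 23 genes at 10 FPKM or more except Ucp3 in some samples. The mitochondrial trifunctional enzyme had 553, 533 and 537 FPKM for Hadha and 729.5, 704 and 692 FPKM for Hadhb, Cpt1b had 425, 396 and 394 FPKM and the uncoupling protein Ucp2 1322, 1142 and 1224 FPKM. Ucp3 stood at 14.1, 9.26 and 8.9 FPKM at rest against 0.70 to 2.01 FPKM in siNeg PE. It was called higher in siNeg in both comparisons (3.21 and 1.46). With Slc27a1, Eci1 and Fabp3 that made 4 genes called higher against siNeg PE and none lower, a list median of 0.59. Over all tested genes, 2.8% were called higher and 3.8% lower. Without siNeg 1, where 19 of the 23 genes had their highest value, Slc27a1 no longer passed (0.96).

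Glycolysis was at least as abundant, its 20 genes summing to 15102 ± 334 FPKM against 9161 ± 938 for the 23 of fatty acid oxidation. After Gapdh came Aldoa at 2554, 2469 and 2539 FPKM and Ldhb at 1986, 1741 and 1782 FPKM. Hexokinase 1 carried the first step at 146, 158 and 163 FPKM, and the insulin-regulated Hk2 had 3.31, 4.17 and 4.17 FPKM. None of the 20 genes was called against siNeg PE (list median 0.10). Slc2a4 and Eno3 (1.33) were called higher than in siSlc39a2.

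The cardiac transcription factors had the steadiest sum of the lists, though 15 of the 22 members had their lowest value in siNeg 1. Their sum was 774 ± 6.66 FPKM (SD, n = 3), and none of those tested was called in either comparison. Nkx2-5, which with Gata4 specifies the heart, had 238, 215 and 206 FPKM and Gata4 125, 127 and 132 FPKM. Mef2d stood at 96.3, 96.3 and 98.4 FPKM, above its relatives Mef2a (37.5 to 47) and Mef2c (5.13 to 7.02). The ventricular factor Irx4 had 68.6, 67.7 and 67.2 FPKM and Srf 61.6, 61.8 and 61.7 FPKM, whereas the pacemaker factors were scarce, Tbx3 at 0.49 to 0.77 and Shox2 at 0.02 to 0.05 FPKM. Tbx20, needed in ventricular growth, had 13.9, 24.1 and 21.4 FPKM, the lowest value again in siNeg 1.

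The alpha1 and beta1 receptors were ordered without overlap between neighbours. Adra1b, an alpha1 receptor through which PE acts, was highest at 83.5, 72.4 and 72.9 FPKM. The beta1 receptor Adrb1, which drives rate and force, followed at 42.4, 44.8 and 45.2 FPKM, lower by a factor of 1.61 to 1.97. Adra1d had 28.6, 26.6 and 26.3 FPKM and Adra1a was lowest of these at 5.41, 6.95 and 7.66 FPKM. The alpha2 receptors Adra2a, Adra2b and Adra2c and the beta3 receptor Adrb3 stayed under 0.1 FPKM in every siNeg sample.

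Of the alpha1 receptors through which PE acts, Adra1d and Adra1b were higher at rest than under PE, and Adra1a was lower. Adra1d (11 to 11.4 FPKM in siNeg PE, log2 fold change 1.35, SE 0.10, adjusted p = 1.07e-06) and Adra1b (34 to 46.8 FPKM, log2 fold change 1.02, SE 0.12, adjusted p = 4.01e-05) were called higher in siNeg, 2 of the 5 adrenergic receptors at 1 FPKM or more, where 2.8% of all genes were. Adra1a ran the other way without overlap, at 5.41 to 7.66 FPKM in siNeg and 7.82 to 10.96 FPKM in siNeg PE. Its log2 fold change of -0.40 (adjusted p = 0.0155 by edgeR) missed the fold threshold, so it was not called. Adra1b lies at the fold threshold, and without siNeg 1 its log2 fold change was 0.92. None was called against siSlc39a2.

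**Figure D4:**
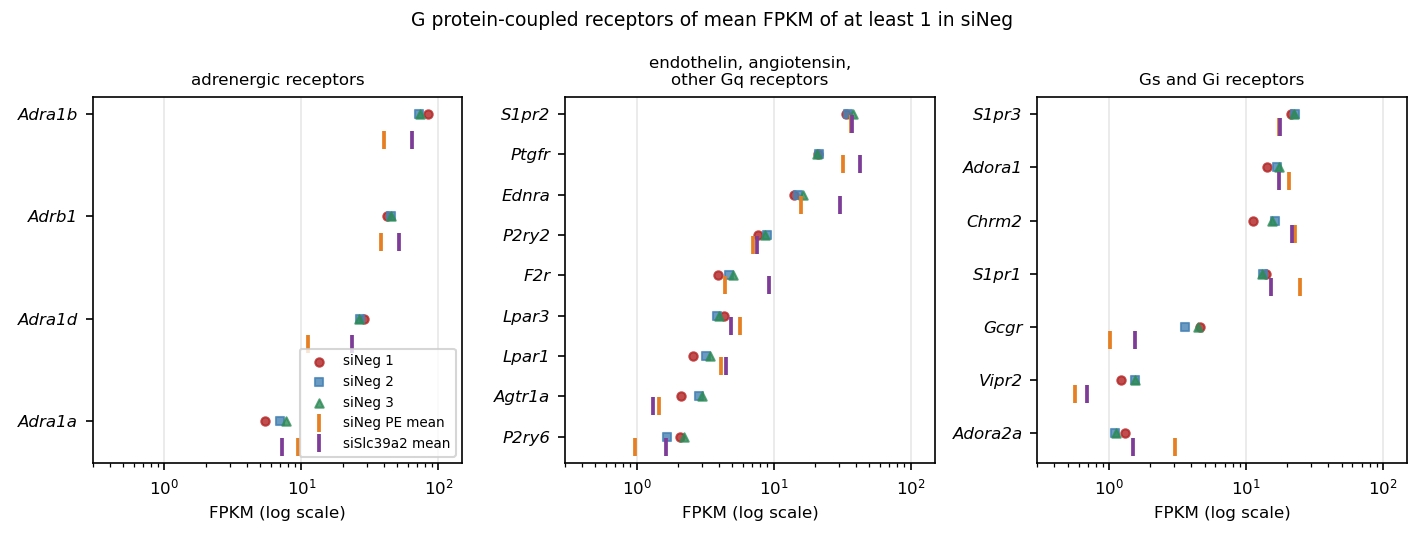
FPKM on a log axis of G protein-coupled receptors with a mean of at least 1 FPKM in siNeg, with a symbol for each siNeg sample and ticks for the means of siNeg PE and siSlc39a2. Adra1b (72.4 to 83.5 FPKM) and Adrb1 (42.4 to 45.2 FPKM) lead, and the siNeg PE ticks of Adra1b and Adra1d lie to the left of all 3 siNeg symbols.

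Of 16 other Gq-coupled receptors, 9 were at 1 FPKM or more, and all lay below Adra1b. S1pr2, a receptor of sphingosine 1-phosphate, had 33.8, 35 and 37.8 FPKM, the prostaglandin F receptor Ptgfr 21, 21.3 and 20.7 FPKM and the endothelin A receptor Ednra 14.1, 15.1 and 16.3 FPKM. The angiotensin receptor Agtr1a had 2.12, 2.83 and 2.99 FPKM, and Agtr2 had no counts in any siNeg sample, where 3 counts would be 0.109 to 0.114 CPM. The endothelin B receptor Ednrb was far lower than the A type, at 0.39, 0.37 and 0.34 FPKM. Of the 14 that were tested, 1 was called higher (P2ry6, 1.13) and 2 lower than in siNeg PE, beside 2.8% and 3.8% of all genes. The lower ones, F2rl1 and Bdkrb2, were close to the floor at rest (3, 6 and 7 and 0, 2 and 3 counts). Against siSlc39a2, Ednrb (2.5) and Agtr1a (1.15) were called higher and F2rl1, Bdkrb1 and Bdkrb2 lower, beside 5.21% and 4.57% of all genes.

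Among Gs- and Gi-coupled receptors, S1pr3 (21.3, 22.9 and 22.5 FPKM), the adenosine receptor Adora1 (14.2, 16.8 and 17.4 FPKM), the muscarinic receptor of the vagus Chrm2 (11.3, 16.3 and 15.5 FPKM) and S1pr1 (14, 13.3 and 13.1 FPKM) exceeded 10 FPKM. The glucagon receptor Gcgr had 4.66, 3.6 and 4.45 FPKM and was called higher than in siNeg PE (2.12) and siSlc39a2 (1.56). The same was true of Vipr2 (1.36 and 1.13), at 1.22, 1.54 and 1.56 FPKM. Oprd1, under 1 FPKM, was called higher than in siSlc39a2 (1.41). Adora2a (-1.28) and Crhr2 (-2.21) were called lower than in siNeg PE. The receptors Aplnr, Glp1r and Npy1r were at 0.1 FPKM or less. Of the natriuretic peptide receptors, Npr2, for the C-type peptide, had 11.2, 11.7 and 12.3 FPKM and Npr1, for the products of Nppa and Nppb, 3.08, 2.82 and 3.4 FPKM.

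Receptors of growth factors had 13 of 18 members at 1 FPKM or more, and all 18 had their lowest value in siNeg 1. Igf2r, which clears Igf2, led at 93.7, 118 and 122 FPKM, before Pdgfrb, a receptor of mural cells and fibroblasts, at 51.8, 61.8 and 66.3 FPKM and Fgfr1 at 46.1, 47.4 and 49 FPKM. Erbb2 had 27.8, 29.8 and 29.9 FPKM, its neuregulin-binding partner Erbb4 only 1.13, 2.1 and 1.67 FPKM, the insulin receptor Insr 5.41, 6.8 and 6.94 FPKM and Igf1r 4.81, 5.46 and 5.35 FPKM. Flt1 was called higher than in siNeg PE (1.09), and Fgfr3, Fgfr4 and Ntrk3 higher than in siSlc39a2, all 4 of them under 4 FPKM. Receptors of the TGF-beta family were led by Eng (63.5, 62.6 and 67.5 FPKM) and Tgfbr2 (30.2, 38.9 and 41.4 FPKM), and Eng was called higher than in siSlc39a2 at the threshold (1.01).

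The cytokine and Toll-like receptors were led by those of the tumour necrosis factor family. Tnfrsf1a, which binds tumour necrosis factor, had 71.4, 69.4 and 72.6 FPKM, Tnfrsf12a 73.2, 60.8 and 58.5 FPKM and the gp130 receptor Il6st 15.3, 19.2 and 20 FPKM. The interferon receptors stood at 13 to 15.2 FPKM for Ifnar1 and 46.6 to 50.2 FPKM for Ifngr1, while Toll-like receptors Tlr2, Tlr3 and Tlr4 reached at most 2 FPKM. None of the 18 was called against siNeg PE, but without siNeg 1 there was 1 called lower. Against siSlc39a2, 5 were called lower, Osmr, Tnfrsf1b, Tlr2, Tlr3 and Tlr4, where 4.57% of all genes were. Osmr did not pass without siNeg 1 (-0.88).

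Among nuclear receptors, the thyroid hormone receptor Thra had 116, 106 and 102 FPKM against 0.80, 1.02 and 0.82 FPKM for Thrb. Esrra, a regulator of mitochondrial genes, stood at 100.4, 81.9 and 76.3 FPKM and the retinoid receptor Rxrg at 83, 71.5 and 71 FPKM. The oestrogen and progesterone receptors were at the floor, with Esr1 at 0.07 to 0.17 FPKM and no counts for Pgr. Rxrg was called higher than in siNeg PE (1.62, 21.2 to 31.2 FPKM there) and Vdr higher than in siSlc39a2 (2.22).

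Genes without any count in the 3 siNeg libraries numbered 1463 (7.92% of the table), and 3451 (18.7%) had at most 3 counts in each. The table lists no gene without counts in all 12 samples, so these are genes seen at least in another group. Of the 1463, 1259 (86.1%) had at most 3 counts in any sample. None had 10 counts or more in every siNeg PE sample, 19 had so in every siSlc39a2 sample and 7 in every siSlc39a2 PE sample. Interferon beta, Ifnb1, was one of the 19, with 246, 242 and 189 counts in siSlc39a2. The chemokine Ccl12 had 36, 27 and 26 counts there, Ifna4 49, 54.0 and 43, the corepressor Skor1 59, 41 and 45, and Sprr1a 106, 55 and 56. These 4 and Cxcl9, Ifna11, Il27 and F10, also among the 19, were singled out after their values were seen.

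Within the lists, the genes without counts beside Ifnb1 were Agtr2 and Pgr, the endothelial factors Erg and Sox17, and the T cell gene Cd3e. To these came the erythroid Alas2, the neuronal Snap25, the myogenic factors Myf5 and Myf6, the liver gene Alb, and the germ line genes Dazl and Sycp3. Genes of other tissues were thus at or near the floor. The pluripotency and germ line list summed to 0.12 ± 0.11 FPKM over 6 genes, and hepatocyte and pancreatic genes to 1.66 ± 0.52 FPKM over 6, almost all from Ttr at 1.07, 2.12 and 1.2 FPKM. Skeletal muscle genes other than Ckm, which the heart shares (1464, 1334 and 1303 FPKM), and Eno3 (87.3, 87.4 and 93.2 FPKM) stayed under 2 FPKM, including the fast myosins Myh1, Myh2, Myh4 and Myh8.

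The labels name the cells as ventricular myocytes, and all 12 cardiomyocyte markers exceeded 10 FPKM in siNeg. Together they summed to 25595 ± 983 FPKM. Genes of other cells of the ventricle were also present, in very unequal amounts. Fibroblast markers had 13 of 14 members at 1 FPKM or more and a sum of 3212 ± 515 FPKM, lowest in siNeg 1 (2622). Collagen Col1a1 had 1449, 1893 and 1995 FPKM, Col3a1 537, 772 and 843 FPKM and Col1a2 339, 412 and 376 FPKM. The fibroblast factor Tcf21 had 22.2, 23.4 and 22.6 FPKM, Pdgfra 4.96, 6.54 and 6.5 FPKM and the matrix gene Postn 113, 146 and 137 FPKM. The summed FPKM of the collagens Col1a1, Col1a2 and Col3a1 relative to that of Tnnt2 ran from 0.47 in siNeg 1 to 0.80 in siNeg 3, so the mix of transcripts was not the same in the 3 libraries.

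Smooth muscle and pericyte markers summed to 3818 ± 85.7 FPKM, most of it from Des, which myocytes share, Acta2 (878, 889.5 and 947 FPKM) and Tagln (652, 658 and 660.1 FPKM), both of them genes that immature myocytes and activated fibroblasts can express as well. The smooth muscle myosin Myh11, more restricted, had 1.41, 2.05 and 1.92 FPKM, and the pericyte gene Rgs5 0.21, 0.31 and 0.42 FPKM. Endothelial markers were nearly absent, 3 of 12 at 1 FPKM or more and a sum of 7.41 ± 0.41 FPKM. Pecam1 had 0.33, 0.32 and 0.29 FPKM, Cdh5 0.07, 0.13 and 0.06 FPKM and Vwf 0.08, 0.07 and 0.06 FPKM. Collagen transcripts were thus the most abundant of the genes listed for other cells and not shared with muscle, and the defining endothelial genes were under 1 FPKM.

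Leukocyte markers summed to 83.3 ± 16.1 FPKM, but 85.8, 57.7 and 53.7 of this was Lyz2 alone, whose counts were not whole. Cd68 had 7.0, 8.22 and 8.78 FPKM, C1qa 1.8, 1.54 and 1.88 FPKM and the pan-leukocyte Ptprc 0.06, 0.12 and 0.15 FPKM. Lymphocyte markers summed to 1.55 ± 0.33 FPKM over 4 genes, nearly all Cd4. Among erythroid genes only the erythropoietin receptor Epor exceeded 1 FPKM (6.22, 4.79 and 4.68), and beta-globin Hbb had 0.14, 0.38 and 0 FPKM. Epicardial markers reached 28 ± 3.56 FPKM, led by the retinoic acid enzyme Aldh1a2 (11.1, 12.5 and 12.6 FPKM), with Msln at 3.65, 3.1 and 5.13 and Wt1 at 0.79, 0.89 and 1.23 FPKM. The Schwann and neuronal list held Dbh, the enzyme that makes noradrenaline, at 5.36, 4.57 and 4.86 FPKM. Th, an earlier enzyme of the same pathway, had at most 0.04. Adipocyte markers summed to 2.93 ± 0.57 FPKM.

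**Figure D5:**
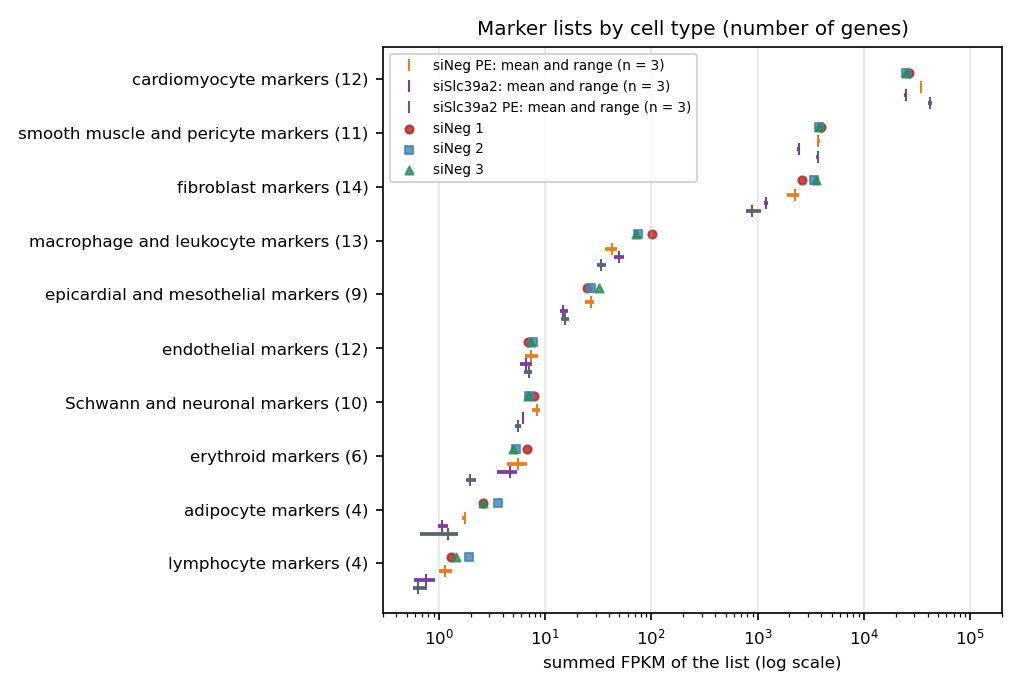
Summed FPKM of each cell type list on a log axis, with a symbol for each siNeg sample and the mean and range of each of the other groups (n = 3). In siNeg, cardiomyocyte markers lie at 24983 to 26729 FPKM, fibroblast markers at 2622 to 3577 and endothelial markers at 6.97 to 7.79.

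The levels of other cells' markers moved between groups. Fibroblast markers summed to 1911 to 2477 FPKM in siNeg PE and 1153 to 1261 in siSlc39a2, against 2622 to 3577 in siNeg. Against siSlc39a2, 8 of 14 were called higher in siNeg and none lower, where 5.21% of all genes were called higher (list median 1.28). Col6a3 (log2 fold change 2.39, SE 0.17, adjusted p = 1.16e-07), Fbln1 (2.13), Dpt (2.04), Col1a2 (1.69) and Col1a1 (1.68) had the largest differences, followed by Col3a1, Thy1 and Postn. Tcf21, Ddr2 and Pdgfra, which also mark these cells, were not called (-0.34, 0.04 and -0.12). Against siNeg PE, 1 marker was called, Mfap5 (2.27), from under 1 FPKM. The same counts were found without siNeg 1.

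Among smooth muscle markers, Cnn1 had 18.3, 19.3 and 20.8 FPKM at rest against 106 to 138 in siNeg PE (log2 fold change -2.57, SE 0.08, adjusted p = 8.51e-10), and Tagln ran the other way (212 to 287 FPKM in siNeg PE, log2 fold change 1.48, SE 0.08, adjusted p = 8.46e-08). Against siSlc39a2, Acta2 (1.42), Tagln (1.30), Cnn1 (1.22) and Notch3 (1.52) were called higher in siNeg. Epicardial Msln (2.65), Upk3b, Upk1b and Aldh1a2 were too. Lyz2 was called higher in both comparisons (1.16 and 1.10), and in neither without siNeg 1 (0.89 and 0.84). Scattered members of the other lists were also called. Endothelial Pecam1 and Flt1 were higher than in siNeg PE and Tie1 higher than in siSlc39a2, and Fabp4 was higher in both comparisons. Mrc1, Cd4, Epor and S100b were called higher than in siSlc39a2, and Aif1 and Slc4a1 (0.08, 0.06 and 0.02 FPKM at rest, 1.59 to 2.23 in siSlc39a2) lower. The part of such cells in the differences of other genes between these groups was not tested.

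Proliferation genes were low to moderate. Of 25, 24 were at 1 FPKM or more and 13 at 10 or more, and 22 had their lowest value in siNeg 1. The proliferation marker Mki67 had 0.72, 2.13 and 1.62 FPKM, Top2a 1.47, 3.13 and 2.8 FPKM and the kinase Cdk1 18.1, 23.3 and 26.6 FPKM, while the cell cycle inhibitor Cdkn1a, at 204, 146 and 139 FPKM, was the highest of the list. Against siNeg PE, 9 were called lower in siNeg and none higher, where 3.8% of all genes were called lower. They included Mki67 (-1.77), Top2a (-1.70), the nucleotide enzyme Rrm2 (15.8, 28.1 and 31.6 FPKM against 76.8 to 90, log2 fold change -1.69, SE 0.17, adjusted p = 1.20e-05), Bub1, Mcm5, E2f1, Mcm3, Pcna and Aurkb. The list median was -0.72. Without siNeg 1, Aurkb fell short of the fold threshold (-0.88).

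Against siNeg PE, the 5 genes with the largest positive differences were LOC100911615, Kcnip2, LOC100911951, Ucp3 and Cemip. Cemip, which degrades hyaluronan, had 33, 54.8 and 61.7 FPKM at rest against 5.51 to 8.12 (log2 fold change 2.93, SE 0.21, adjusted p = 7.01e-07). LOC100911615 had 189, 730 and 634 counts in siNeg and was listed at 0 FPKM in all siNeg PE samples, but its counts were not whole and it varied between replicates, and LOC100911951 was not whole either. The largest negative differences, beside Nppb and Nppa, were of genes all but silent at rest. These were Tgm1 (0, 2 and 0 counts, 2.19 to 2.45 FPKM in siNeg PE), the neuropeptide precursor Pnoc (0, 5 and 4 counts, 9.21 to 12 FPKM) and the bradykinin receptor Bdkrb2.

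Against siSlc39a2, the genes with the largest positive differences were Zbtb22, Col8a2, Megf6, Fndc1 and Mustn1. Col8a2, a collagen, had 5.71, 6.03 and 6.48 FPKM against 0.73 to 1.14 (log2 fold change 2.88, SE 0.13, adjusted p = 2.18e-09), and Fndc1 4.4, 6.32 and 8.05 against 0.85 to 1.07 (2.79). The counts of Zbtb22, Megf6 and Mustn1 were not whole. The largest negative differences, Oas1i, Ifnb1, LOC100911527, RGD1560539 and the nucleic acid sensor Zbp1, were of genes with 0 to 4 counts in each siNeg library, so that their fitted folds are no measure of size. Zbp1 had 20.3 to 22.9 FPKM in siSlc39a2. The targeted Slc39a2 had 1.51, 1.49 and 1.87 FPKM (50, 50 and 59 counts) in siNeg and 0.07 to 0.63 FPKM in siSlc39a2, without overlap (log2 fold change 2.35, SE 0.46, adjusted p = 9.80e-04).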

How the data were processed

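Total RNA of 12 NRVM cultures was sequenced by the authors' provider, and 3 of them, the group siNeg, are described here. The authors deposited expected counts per gene and FPKM per gene for the same 18483 genes. Per the labels, the submitters' processing notes name HISAT, Bowtie2 and the build Rnor_6.0. The counting program and the annotation are not given in the sources used here. Of the deposited counts 78.7% were whole. Library totals in siNeg were 26429382 to 27537324 counts, and intervals from counts would cover counting error only. The table lists 259 loci without a known gene and no mitochondrially encoded gene.

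FPKM gave levels and ratios. The expected counts were rounded and tested with edgeR 4.0.16 (R 4.3.3, quasi-likelihood, TMM, 4 groups in 1 fit, 8 residual degrees of freedom, 4516 genes left out by filterByExpr), with adjusted p under 0.05 and absolute log2 fold change above 1. The study's own approach, limma (3.58.1) on normalized values, and DESeq2 1.42.0 were alternatives. Isoform ratios used exact permutation tests (scipy 1.17.1), adjusted over 19 pairs. Scripts were tested on simulated data. Some genes and 1 pair are not reported here.

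Genes named are the 30 of highest mean FPKM, both genes of each pair, in each list the 3 highest, those without counts and those called, the 5 largest differences in each direction and the 10 most variable of at least 5 FPKM. In the receptor, transcription factor, zinc importer and other-cell lists any member could be named, and members named elsewhere were chosen after their values were seen. The group, the 36 lists (482 of 515 genes in the table) and the pairs were chosen with earlier results of these data known. Same-numbered samples of siNeg and siNeg PE correlated at 0.05 to 0.31 in their deviations, over 0.1 in 2 of 3 pairs, and those of siNeg and siSlc39a2 at -0.01 to 0.02, so the numbers were not taken as pairing.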

Additional observations from a re-analysis of the deposited data

How the results depend on the processing

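Counts of genes called moved most with the method. Without a threshold on fold change, 3584 genes were higher and 3351 lower in siNeg than in siNeg PE, and 3685 higher and 3188 lower than in siSlc39a2. With limma on quantile-normalized log2(FPKM + 1), the numbers were 124 and 163, and 282 and 328. Leaving out single samples gave 353 to 447 and 438 to 659 against siNeg PE, and 675 to 747 and 636 to 673 against siSlc39a2. DESeq2 gave 368 and 527, and 679 and 634, and a replicate block 392 and 537, and 735 and 651. The alternatives numbered 15, of which those leaving out a siNeg PE or siSlc39a2 sample apply only to that group's comparison. Of 167 named log2 fold changes past the threshold, 103 stayed past it under every alternative of their comparison and 145 under all but limma. Without siNeg 1, 11 of these fold changes lost it, and none lost it in the replicate block. None changed sign. Leaving out siNeg 1 also added calls in some lists. Against siNeg PE, higher calls were added among thick filament, other Gq receptor, natriuretic peptide receptor, cardiomyocyte and smooth muscle genes. A lower call was added among cytokine receptors. Against siSlc39a2, 2 zinc importers were then called higher.

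Of the isoform pairs, 9 passed with 1 added to FPKM, and 8 with 0.01 added or with expected counts. No pair passed with the replicate block or without any of the siNeg samples (0 to 0), because the smallest p then possible, 0.0312 in the block and 0.0364 without a sample, fails adjustment over 19 pairs, while 7 to 9 pairs had an unadjusted p under 0.05. The Tnni3/Tnni1 ratio in siNeg was -0.052 in expected counts, an alternative chosen after seeing the data, and turned with the transcript lengths. The 50 highest genes took 18.99% of counts, 22.8% of FPKM without ribosomal protein genes, and 20.8 to 21.3% without a sample. Genes without counts numbered 1842 to 1870 without a sample and 3451 at up to 3 counts. Genes at 1 FPKM or more numbered 11172 to 11252 without a sample.

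Depth limits the genes at the floor. The tilt of siNeg 1 with transcript length limits comparisons of short with long transcripts, and isoform-weighted lengths limit ratios between forms.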

Other observations

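The zinc importers of the Slc39a family, to which the targeted gene belongs, were carried at rest by a few members. Slc39a1, at the cell surface, had 174, 158 and 156 FPKM and Slc39a7, which releases zinc from the endoplasmic reticulum, 71.6, 73.1 and 72.7 FPKM, followed by Slc39a14 (33.6, 35.2 and 36.6) and Slc39a13 (33.4, 31.1 and 33). Slc39a2, at 1.51, 1.49 and 1.87 FPKM, stood far below these 4. It was called lower in siNeg than in siNeg PE (2.8 to 5.9 FPKM there, log2 fold change -1.47, SE 0.36, adjusted p = 0.00541 by edgeR). Of 11 tested members it was the only one called in that comparison, where 3.8% of all genes were called lower. The family summed to 343 ± 6.01 FPKM.

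Stress genes were expressed at rest, all 18 at 1 FPKM or more. The small heat shock protein Hspb1 had 565, 540.5 and 543 FPKM, the constitutive chaperone Hspa8 537, 543 and 569 FPKM and the stress response factor Atf4 304, 307 and 304 FPKM, while the inducible Hspa1a had 1.12, 1.12 and 1.16 FPKM. No stress gene was called against siNeg PE. Against siSlc39a2, Nqo1, an antioxidant enzyme, was called higher (1.31) and Ddit3, a gene of the unfolded protein response, lower (-1.29). Immediate early genes were led by Ctgf (124, 142 and 151 FPKM), Cyr61 (78, 81.9 and 88.2 FPKM) and Ier3 (79.2, 70.9 and 67.9 FPKM), with Fos at only 2.74, 2.06 and 1.94 FPKM. Fos (-1.14), Egr2 (-1.35) and Nr4a3 (-2.22) were called lower than in siNeg PE, and Fos (-1.41) and Atf3 (-2.22) lower than in siSlc39a2.

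Interferon genes were low at rest, 25 genes summing to 202 ± 2.71 FPKM against 6652 to 7086 in siSlc39a2. Among them were the adaptor Mavs (37.6, 36 and 36.2 FPKM) and Stat2 (30.1, 30.4 and 30.6 FPKM), which carry the signal, while effectors such as Ifit1 (0.30, 0.71 and 0.88 FPKM) and Rsad2 (0.48, 0.57 and 0.83 FPKM) stayed under 1 FPKM. Against siSlc39a2, 20 of the 25 were called lower in siNeg, where 4.57% of all genes were, with a list median of -3.81. Irf7 had 14.7, 16.6 and 15.3 FPKM at rest. Against siNeg PE, 3 were called lower, Mx1, Mx2 and Cgas, where 3.8% of all genes were. No untransfected culture was analysed here.

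Of the 10 most variable genes of at least 5 FPKM, all had counts that were not whole. Nfs1 had 24.3, 1.94 and 1.29 FPKM, Chchd10 81, 33.6 and 20.5 FPKM and LOC103693780 18.6, 0 and 0 FPKM across siNeg 1, 2 and 3, each highest in siNeg 1. The others were Mepce, Natd1, LOC108349682, Surf2, Alkbh6, LOC103689931 and LOC100911615.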
